A study of Mus musculus with 50 samples.

Results

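Frontal cortex of young adult mice with 1 loss-of-function allele of Setd1a was compared with wild-type cortex at postnatal day 70 (P70). The libraries were those whose labels give the age P70, 10 of the 50 in the series, and the comparison set 5 heterozygous (Het, Setd1a+/-) against 5 wild-type (WT) mice. The other 40 libraries are 5 Het and 5 WT at each of E14, E18, P7 and P35. They were used here to ask whether the P70 differences were also present at other ages. They also entered the fit behind the P70 test, in which the spread between replicates was estimated over all 50 libraries. Fitted on the P70 libraries alone, edgeR called 0 genes. Het mice carried the Setd1a tm1d allele in the whole body, made by a knockout-first design, and were bred from Het fathers and WT mothers. The labels give the strain of both genotypes as C57BL/6NTac, whereas the methods of the study describe a mixture of C57BL/6NTac and C57BL/6J. All mice at P70 were male and untreated, and each library came from bulk bilateral frontal cortex, by poly-A capture and 150 bp paired reads in a single sequencing batch. The methods state that littermates were taken at postnatal ages. Nothing in the labels says which mice shared a litter, so a p-value here measures the spread between these samples. Total counts ran from 37147164 to 40032091 per P70 library.

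Setd1a is a catalytic subunit of a COMPASS complex, the family of complexes that methylate histone H3 at the residue known as H3K4. Trimethylated H3K4 marks the promoters of active genes, and in mammals the enzymes that write it include Setd1a, Setd1b and the Kmt2 proteins. People who carry a damaged copy of SETD1A are more often diagnosed with schizophrenia or delayed development, and heterozygous mice model that state.

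Setd1a itself was measured in every sample. Its level was 84.4, 88.7, 84.8, 81.6 and 92.0 CPM in WT replicates 1 to 5 and 81.9, 86.0, 81.5, 76.6 and 97.8 CPM in Het replicates 1 to 5, where CPM is counts scaled to the library size after TMM normalization. The genotypes overlapped, and the highest of all 10 samples was Het replicate 5. The log2 fold change of Het against WT was −0.03 (SE 0.053, adjusted p = 1.00, edgeR). Counts over the gene do not show which allele a fragment came from, and they do not distinguish the labeled genotypes here. Of the exonic bases of Setd1a, 52.3% are shared with the annotated gene Gm49388, and fragments there were counted for both. In the 40 libraries of the other ages the log2 fold change of Setd1a was 0.14 (SE 0.023, adjusted p = 0.000197, edgeR). The P70 effect was lower than the mean effect of those ages by 0.16 on the log2 scale, with an unadjusted p of 0.0093 that did not pass adjustment over all genes (adjusted p = 1.00, edgeR).

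The tissue label was checked against marker genes. Excitatory neuron markers summed to 7328 ± 675 CPM in WT and 6978 ± 370 CPM in Het (SD, n = 5), with Camk2a the most abundant. Astrocyte markers summed to 4382 ± 236 and 4451 ± 21.1 CPM, and oligodendrocyte markers to 4462 ± 346 and 4609 ± 363 CPM. The 8 Hox genes that mark hindbrain were absent or nearly so, since 5 of them had 0 counts in all 10 libraries and the highest count of any was 1. Among the 21 lists of cell type, region and stress markers, 0 genes were called by edgeR, limma-voom or DESeq2. An unadjusted p under 0.05 in edgeR was found for 4 of these genes, and for 6.55% of all tested genes. In bulk tissue, fewer cells of a type and less RNA per cell cannot be told apart.

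The libraries did not separate by genotype. Measured as a root mean square of log2 differences over 12496 genes, the mean distance between a pair of P70 libraries was 0.220 within a genotype and 0.223 between genotypes. Component 1 of a principal component analysis held 36.98% of the variance and component 2 held 16.9%. Arc, Egr1, Egr2, Homer1 and Hspa5 lay at the positive end of component 1, the former 4 being activity-induced genes, and the striatal genes Adora2a, Drd2 and Six3 lay at the negative end. WT replicates 4 and 5 and Het replicate 5 scored −13.6, −14.4 and −14.7 on it, whereas the other 7 libraries scored −1.80 or more. WT replicate 3 stood apart on components 1 and 2, with scores of 15.9 and 15.4.

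Activity-induced and striatal transcripts differed more between mice than between genotypes. The 25 immediate early genes summed to 2060, 3093, 3725, 2253 and 1546 CPM in WT replicates 1 to 5, with Homer1 the most abundant. In Het replicates 1 to 5 the same sums were 3030, 2308, 3437, 3196 and 1722 CPM. Markers of striatum, which lies under frontal cortex and can enter a dissection, summed to 1702, 1830, 514, 1438 and 1262 CPM in WT and to 866, 1412, 2143, 841 and 1651 CPM in Het replicates 1 to 5. WT replicate 3 had the lowest striatal and the highest immediate early gene sum. Meningeal fibroblast markers summed to 221 ± 19.3 CPM in WT and 295 ± 99.4 CPM in Het (SD, n = 5), where Het replicate 2 was highest at 458 CPM and Igf2 was the most abundant gene. Erythroid markers, led by Hbb-bs, summed to 143 ± 57.1 and 92.3 ± 28.7 CPM. The part of these differences in the results on genotype was examined only by leaving out libraries and by a covariate for immediate early gene level, chosen after seeing the data, with which 28 genes were called, all lower.

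**Figure D1:**
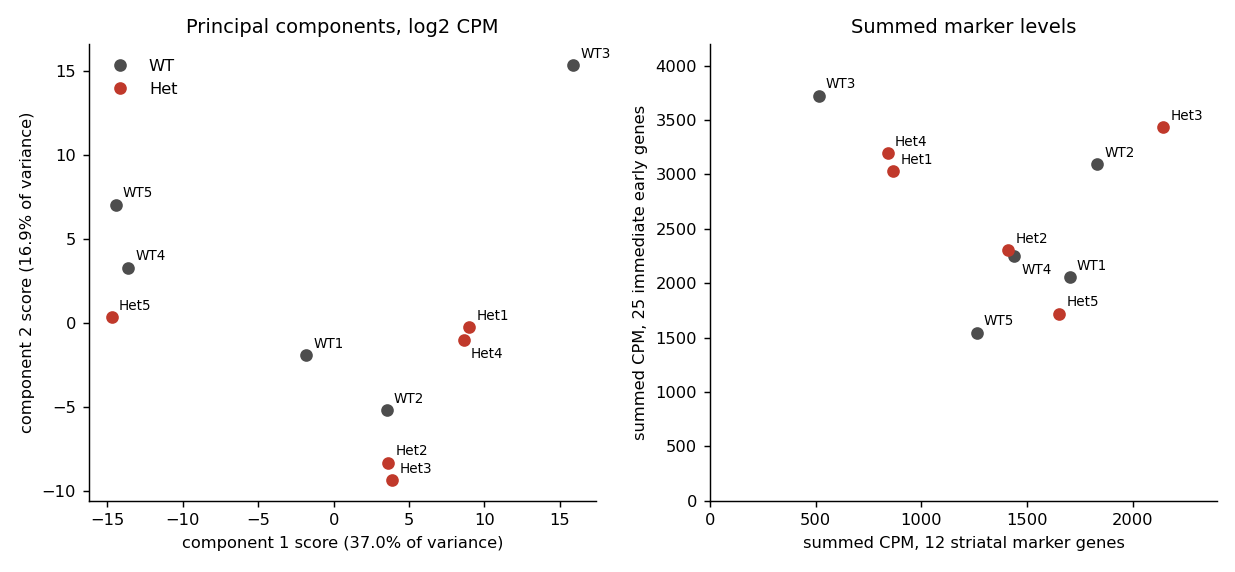
The 10 P70 libraries on principal components 1 and 2 (left) and by the summed CPM of striatal markers and immediate early genes (right), with WT in grey and Het in red and the replicate number beside each point. WT replicates 4 and 5 and Het replicate 5 form a group at the left of component 1, WT replicate 3 lies apart, and the genotypes are mixed.

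At P70 the genes that passed the test were nearly all lower in Het cortex, and the steps were small. Of 16330 protein-coding genes tested, 38 were called at an adjusted p under 0.05 (0.233%), 36 lower (0.220%) and 2 higher (0.0122%). Among the 36, levels in Het cortex were 61.0% to 88.5% of the WT mean, with a median of 79.9%, and the median log2 fold change was −0.32 with quartiles of −0.48 and −0.26. Some of them, picked by role after the test and not counted as a group, encode mitochondrial enzymes (D2hgdh, Vars2, Foxred1), enzymes of nucleotide and cofactor metabolism (Nudt18, Thtpa, Flad1), parts of the transcription and RNA processing machinery (Tada3, Gtf2e1, Lsm10) and the collagen Col11a2. Both higher genes, A3galt2 and Nabp1, are described after them. In 20 of the 36 lower genes all 5 Het samples were below all 5 WT samples, as in 1.26% of all tested genes, and in 1 of the 2 higher genes all Het samples were above, as in 0.539%. The wild-type level of the called genes was ordinary, with a median of 27.1 CPM against 22.8 CPM over all tested genes.

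Without a threshold on the adjusted p the lean toward lower genes was weaker. An unadjusted p under 0.05 was reached by 1070 genes (6.55%), 720 lower (4.41%) and 350 higher (2.14%). Het was below WT for 48.5% of all tested genes and the median log2 fold change was 0.00. TMM scaling centers these values, so a shift of the whole distribution would not be seen here. The called genes lie on 17 chromosomes with at most 4 on any of them, 2 on chromosome 7 with Setd1a, and 0 within 2 Mb of it.

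**Figure D2:**
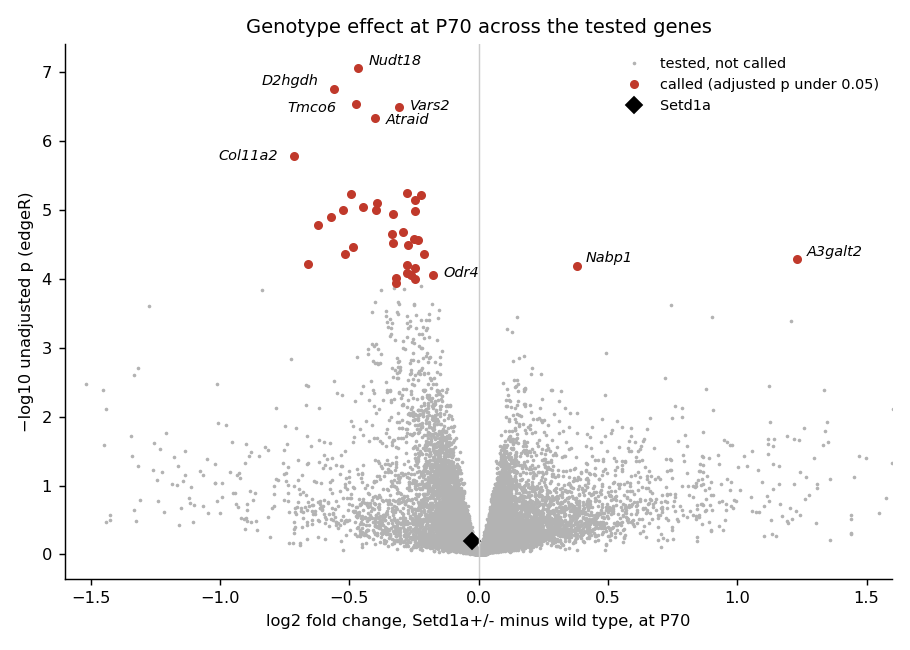
Log2 fold change of Het against WT at P70 (x axis) and −log10 of the unadjusted p from edgeR (y axis) for the tested genes, where red points are the 38 called genes, the diamond is Setd1a and 40 uncalled genes beyond the x axis are not drawn. The called genes are at the upper left, except Nabp1 and A3galt2, and Setd1a lies near 0.

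The count depended on most of the libraries and on the fit used. It was 23 without WT replicate 1, 9 without WT replicate 4, 10 without WT replicate 5, 16 without Het replicate 1, 12 without Het replicate 3 and 8 without Het replicate 4, and it was 104 without Het replicate 5. Without WT replicates 2 or 3 or Het replicate 2 it was 51, 55 and 27. The lower genes were 91.7% to 100% of those called in each of these 10 fits, and 6 genes were called in all of them: Atraid, Col11a2, D2hgdh, Nudt18, Tmco6 and Vars2. Fitted on the 10 P70 libraries alone, edgeR called 0 genes, with 1327 at an unadjusted p under 0.05, whereas over all 50 libraries limma-voom called 30 and DESeq2 called 77. A covariate for the run of animal numbers, in the P70 libraries alone, also gave 0, with 1129 at an unadjusted p under 0.05. At an adjusted p under 0.01, 6 genes were called.

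Libraries that stood apart were also left out together, in alternatives chosen after seeing the data. Without WT replicate 3 and Het replicate 5, whose deviations from their group means were largest, 255 genes were called, 203 of them lower, and these held 37 of the 38. Without the 3 libraries that lay apart on component 1, WT replicates 4 and 5 and Het replicate 5, 13 genes were called, all lower, 12 of them among the 38. Without the 3 libraries with the lowest immediate early gene sums, WT replicates 1 and 5 and Het replicate 5, 15 were called, all lower. Among the 36 lower genes, 28 (77.8%) had their highest WT value in WT replicate 4 or 5 and 22 (61.1%) their highest Het value in Het replicate 5, against 45.4% and 28.9% of all tested genes. The log2 fold changes themselves kept their sign for all 38 genes with each single library left out and, where a gene had a value, in the fits by other tools, scalings and filters.

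**Figure D3:**
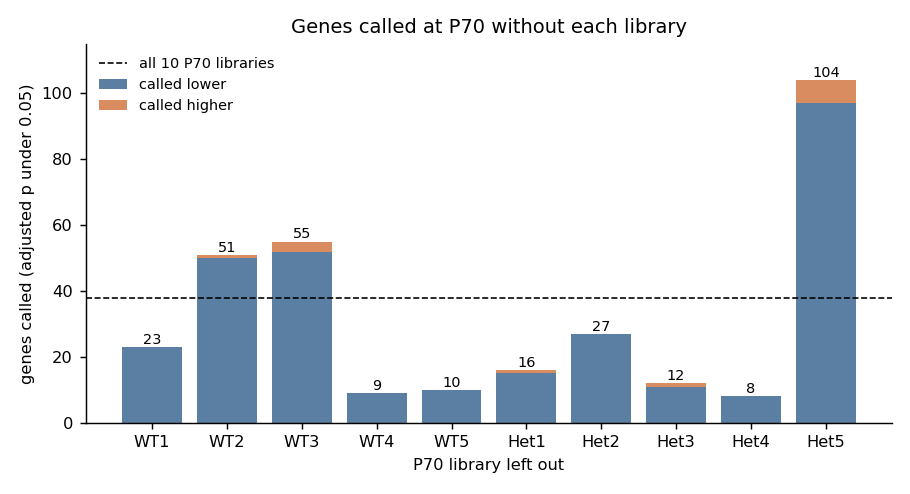
Number of genes called at P70 at an adjusted p under 0.05 (y axis) when each of the 10 P70 libraries is left out (x axis), split into lower and higher genes, with the count of 38 from all libraries as a dashed line. The count runs from 8 without Het replicate 4 to 104 without Het replicate 5, and lower genes make up most of every bar.

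Some of the lower genes encode mitochondrial enzymes. D2hgdh (ENSMUSG00000073609, chr1:93824909-93852348, plus strand of GRCm38) encodes the dehydrogenase that clears D-2-hydroxyglutarate in mitochondria. Its level was 10.1, 10.6, 8.85, 8.78 and 10.1 CPM in WT replicates 1 to 5 and 6.25, 7.17, 6.64, 5.88 and 6.96 CPM in Het replicates 1 to 5. Every Het sample was below every WT sample, and Het cortex held 67.9% of the WT level, a log2 fold change of −0.56 (SE 0.090, adjusted p = 0.00130, edgeR). Vars2 (ENSMUSG00000038838, chr17:35655634-35667592, minus strand), the mitochondrial valyl-tRNA synthetase, was at 28.3, 30.6, 29.8, 30.7 and 32.3 CPM in WT and at 24.5, 25.7, 21.1, 23.5 and 27.9 CPM in Het. These groups did not overlap either, although Het replicate 5 came within a narrow margin of WT replicate 1. The log2 fold change of Vars2 was −0.31 (SE 0.051, adjusted p = 0.00130, edgeR). Foxred1 (ENSMUSG00000039048, chr9:35204206-35211055, minus strand), an assembly factor of respiratory complex I, was at 33.8, 32.9, 31.6, 37.4 and 38.4 CPM in WT and at 26.9, 29.7, 27.5, 26.4 and 31.8 CPM in Het. Here Het replicate 5 was just above WT replicate 3 and the other 4 Het samples were below all WT samples, with a log2 fold change of −0.29 (SE 0.061, adjusted p = 0.0184, edgeR).

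Other lower genes of mitochondrial or cofactor metabolism were measured with more overlap or shared exons. Bola1, which takes part in the handling of iron-sulfur clusters in mitochondria, was at 9.08, 8.79, 6.29, 10.3 and 9.57 CPM in WT and at 6.04, 5.96, 5.82, 6.23 and 6.60 CPM in Het. WT replicate 3 lay within the Het range, and the other 4 WT samples lay above it (log2 fold change −0.52, SE 0.11, adjusted p = 0.0113, edgeR). Nudt8, a mitochondrial Nudix hydrolase, fell by 0.62 on the log2 scale (SE 0.13, adjusted p = 0.0150, edgeR), from 6.42 ± 0.615 CPM in WT to 4.17 ± 0.945 CPM in Het (SD, n = 5), but 88.5% of its exonic bases are shared with Gm49405, so its own share of the counts is uncertain. Thtpa, the thiamine triphosphatase, fell by 0.39 (SE 0.077, adjusted p = 0.0113, edgeR), from 28.3 ± 3.96 to 21.5 ± 3.59 CPM, and shares 56.8% of its exonic bases with Gm20687. Flad1, which makes the flavin cofactor FAD, was at 36.2 ± 2.40 CPM in WT and 30.0 ± 2.48 CPM in Het, a log2 fold change of −0.27 (SE 0.059, adjusted p = 0.0218, edgeR). It was named after its values were seen.

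Nudt18 (ENSMUSG00000045211, chr14:70577637-70582688, plus strand) encodes a Nudix hydrolase that removes oxidized nucleotides. Its level was 39.9, 35.2, 34.1, 47.8 and 44.5 CPM in WT replicates 1 to 5 and 31.2, 24.8, 28.7, 27.8 and 33.4 CPM in Het replicates 1 to 5. No Het sample reached the lowest WT sample, and the 2 highest WT samples were replicates 4 and 5, which stood apart on component 1. The log2 fold change at P70 was −0.47 with no P70 library left out (SE 0.073, adjusted p = 0.00130, edgeR). It lay between −0.52 and −0.40 in the alternatives, and Nudt18 was called in 20 of 22 of them. Keap1, the adaptor that directs the oxidative stress factor Nrf2 to degradation, was at 92.5, 84.2, 74.3, 95.0 and 89.6 CPM in WT and at 75.5, 73.3, 73.0, 71.4 and 82.9 CPM in Het. Only WT replicate 3 fell within the Het range, and the log2 fold change was −0.21 (SE 0.047, adjusted p = 0.0267, edgeR). Keap1 and the DNA repair genes Mpg (−0.33, adjusted p = 0.0218) and Recql5 (−0.25, adjusted p = 0.0204, edgeR) were named after their values were seen. Mpg removes damaged bases from DNA, and Recql5 is a helicase. Further lower genes of metabolism, also named afterwards, were Pgls of the pentose phosphate pathway (−0.28, adjusted p = 0.0414), the muscle-type enolase Eno3 (−0.52, adjusted p = 0.0267) and the ADP-ribosyltransferase Parp16 (−0.57, adjusted p = 0.0125, edgeR).

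A further group acts in transcription, RNA processing and protein complexes. Tada3, a subunit of histone acetyltransferase complexes, was at 36.5, 38.2, 37.7, 40.5 and 35.4 CPM in WT replicates 1 to 5. In Het replicates 1 to 5 it was at 30.7, 31.7, 30.2, 31.0 and 35.3 CPM. The groups were separated by the small gap between WT replicate 5 and Het replicate 5, and the log2 fold change was −0.24 (SE 0.049, adjusted p = 0.0113, edgeR). Lsm10, part of the particle that processes histone messenger RNA, was at 3.99, 4.89, 4.60, 5.78 and 3.93 CPM in WT and at 3.89, 3.50, 3.44, 2.97 and 3.18 CPM in Het. Het replicate 1 nearly met WT replicates 1 and 5, and the others were clearly lower (log2 fold change −0.45, SE 0.089, adjusted p = 0.0113, edgeR). Pih1d1, of the R2TP chaperone complex, was 84.4% of WT at 20.9 ± 1.11 against 24.8 ± 1.42 CPM (SD, n = 5), with no overlap between groups. Eid2b, of a family that inhibits EP300 and differentiation, was 79.6% of WT at 23.6 ± 2.66 against 29.7 ± 2.10 CPM. The transcription factor subunit Gtf2e1 (−0.25, adjusted p = 0.0357) and the histone ubiquitin ligase Phf7 (−0.66, adjusted p = 0.0345, edgeR) were named after their values were seen.

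The collagen gene Col11a2 and genes of membrane proteins were also lower. Col11a2 (ENSMUSG00000024330, chr17:34039437-34066685, plus strand) encodes a chain of type XI collagen, known best from cartilage. It was at 39.3, 46.2, 38.6, 33.2 and 46.0 CPM in WT replicates 1 to 5 and at 22.4, 24.8, 27.5, 22.8 and 26.5 CPM in Het replicates 1 to 5. The gap between the groups was wide, and 61.0% of the WT level was the lowest share among the called genes. In the alternatives its log2 fold change lay between −0.78 and −0.66 around the value of −0.71 (SE 0.13, adjusted p = 0.00459, edgeR). Tmco6, a predicted membrane protein on chromosome 18, was at 14.55, 17.01, 14.90, 16.20 and 16.003 CPM in WT and at 10.3, 10.3, 11.5, 12.5 and 11.9 CPM in Het. Its groups were also well apart (log2 fold change −0.48, SE 0.079, adjusted p = 0.00130, edgeR). Atraid, a membrane protein induced by retinoic acid, was at 41.8, 41.1, 36.3, 48.7 and 52.0 CPM in WT and at 33.8, 32.1, 30.4, 30.8 and 39.5 CPM in Het. Het replicate 5 exceeded WT replicate 3, while the other Het samples were below every WT sample (log2 fold change −0.40, SE 0.068, adjusted p = 0.00155, edgeR).

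Hps1, of the BLOC-3 complex that builds lysosome-related organelles, was 71.0% of WT at 17.01 ± 2.52 against 23.9 ± 4.11 CPM (SD, n = 5). Ddrgk1, which takes part in UFM1 conjugation at the endoplasmic reticulum, had a tight spread, with 52.9 to 57.03 CPM in WT and 45.3 to 48.3 CPM in Het. Lrrc61, a leucine-rich repeat protein, was at 24.5 ± 3.32 CPM in WT and 18.6 ± 1.67 CPM in Het, and 1110065P20Rik was at 49.5 ± 4.06 and 40.9 ± 2.12 CPM. Of the exonic bases of 1110065P20Rik, 58.4% are shared with Mtf1, so its counts cannot be assigned to it alone. The genes named after their values were seen hold parts of the cilium and centrosome, Ift81 (−0.28) and Cntrob (−0.34), and the Golgi protein Ccdc91 (−0.23). Gmppa (−0.25) regulates GDP-mannose synthesis, and Irak1 (−0.26) is a kinase of interleukin and Toll-like receptor signaling. Odr4 (−0.18) and Sdr39u1 (−0.32) complete the lower genes with Gm43064 (−0.32), which shares 94.3% of its exonic bases with Ap4b1, and Mfsd4b4 (−0.48), which belongs to a family of close paralogs and is uncertain for that reason.

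Nabp1 and A3galt2 were the genes called higher. Nabp1 (ENSMUSG00000026107, chr1:51465862-51478425, minus strand), a single-stranded DNA binding protein of the DNA damage response, was at 11.3, 11.8, 12.7, 10.6 and 10.9 CPM in WT and at 14.6, 16.5, 13.9, 15.7 and 13.8 CPM in Het. All Het samples exceeded all WT samples, with a log2 fold change of 0.38 (SE 0.086, adjusted p = 0.0345, edgeR). A3galt2, a galactosyltransferase of glycolipid synthesis, was close to the limit of the filter, at 0.320, 0.113, 0.445, 0.254 and 0.218 CPM in WT and 0.465, 0.917, 0.649, 0.786 and 0.357 CPM in Het. The groups overlapped at WT replicate 3 and Het replicate 5, and the log2 fold change was 1.23 (SE 0.27, adjusted p = 0.0306, edgeR). Each of the pair was called in 3 of the 10 fits that leave out a P70 library.

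**Figure D4:**
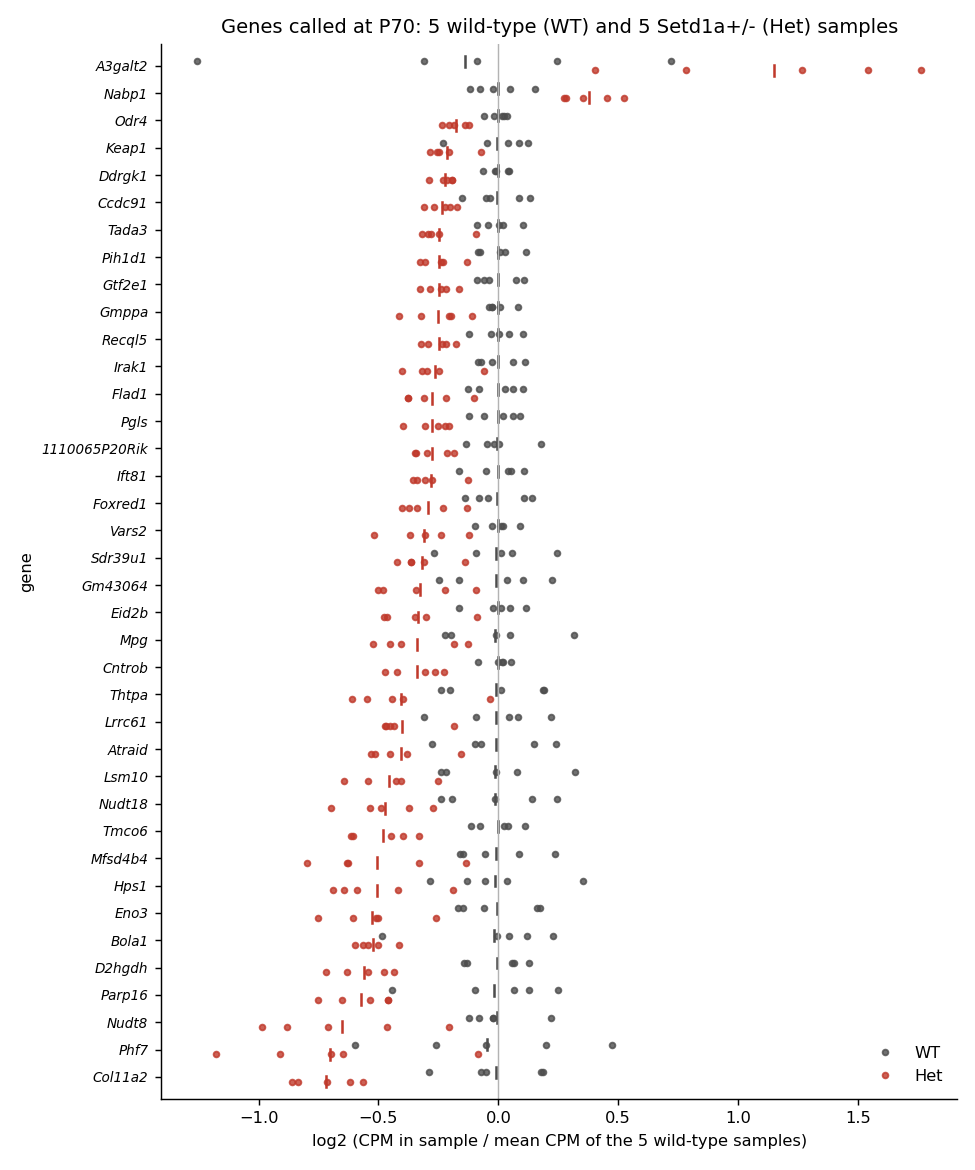
Level of each of the 38 called genes in the 5 WT (grey) and 5 Het (red) P70 samples, as log2 of CPM over the WT mean (x axis), with a short bar at the mean of each group's log2 values. Groups do not overlap in 20 of the 36 lower genes and in Nabp1, and the spread is widest for A3galt2 and Phf7.

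Promoter sequence was described because H3K4 methylation acts at promoters. RefSeq gives a start on GRCm38.p6 for 30 of the 38 called genes and 12482 of all tested genes by symbol, and the 250 bases before the first listed start were searched on both strands for exact letters. The letters GGGCGG (bound by SP factors) were in 63.3% of the called and 55.8% of all tested promoters, and CCAAT was in 33.3% and 35.8%. CCGGAAGT (ETS) was in 3.33% and 5.10%, GCGCATGCG (NRF1) in 3.33% and 2.67%, and AAGATGGCG (YY1) in 6.67% and 0.961%, the latter in Gtf2e1 and Recql5. TATAAA was in 3.33% and 7.16%, CACGTG in 3.33% and 7.92%, and TGACGTCA in 0% and 2.52%, where both of the last read the same on each strand. Matches may overlap each other. At least 10 CpG were found in 73.3% of the called and 67.4% of all tested promoters, and the median GC content was 56.6% and 59.2%. A match is a description of letters, and binding was not measured.

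The promoters of 6 genes are printed, 4 lower at every age (D2hgdh, Vars2, Foxred1, Odr4), Col11a2 with the largest fall among the called genes, and A3galt2 as a higher gene. Each is the longest stretch free of annotated exons within the 250 bases, 5′ to 3′ on the strand of the gene, with matches to the motifs in capitals. They lie at chr1:93825052-93825239 (D2hgdh, plus), chr17:35667593-35667729 (Vars2, minus), chr9:35211056-35211154 (Foxred1, minus), chr1:150393081-150393249 (Odr4, minus), chr17:34038888-34039137 (Col11a2, plus) and chr4:128759008-128759257 (A3galt2, plus).
D2hgdh: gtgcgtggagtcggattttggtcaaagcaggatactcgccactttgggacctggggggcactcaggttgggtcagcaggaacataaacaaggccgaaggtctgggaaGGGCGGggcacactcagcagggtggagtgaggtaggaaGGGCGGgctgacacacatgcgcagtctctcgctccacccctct
Vars2: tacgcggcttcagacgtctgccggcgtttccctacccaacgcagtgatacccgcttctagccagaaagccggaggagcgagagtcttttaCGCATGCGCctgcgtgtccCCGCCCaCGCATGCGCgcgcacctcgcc
Foxred1: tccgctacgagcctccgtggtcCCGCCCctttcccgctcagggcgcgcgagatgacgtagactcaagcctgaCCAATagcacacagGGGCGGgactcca
Odr4: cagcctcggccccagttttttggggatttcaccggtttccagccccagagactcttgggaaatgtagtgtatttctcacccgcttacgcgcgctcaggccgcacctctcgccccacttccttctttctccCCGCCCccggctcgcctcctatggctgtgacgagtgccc
Col11a2: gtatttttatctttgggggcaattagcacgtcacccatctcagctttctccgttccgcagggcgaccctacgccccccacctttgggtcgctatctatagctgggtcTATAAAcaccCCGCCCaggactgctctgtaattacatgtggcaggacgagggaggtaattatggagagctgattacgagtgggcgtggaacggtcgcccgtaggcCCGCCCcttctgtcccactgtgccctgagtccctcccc
A3galt2: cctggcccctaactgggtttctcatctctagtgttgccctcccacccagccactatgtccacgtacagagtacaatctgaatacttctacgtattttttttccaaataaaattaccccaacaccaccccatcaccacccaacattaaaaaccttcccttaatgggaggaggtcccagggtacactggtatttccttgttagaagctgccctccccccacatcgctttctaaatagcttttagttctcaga
The stretches of A3galt2 and D2hgdh lie inside the spans that the gene annotation gives these genes, as the first start that RefSeq lists is further along. The capitals in D2hgdh and Odr4 are the SP letters. Vars2 holds the NRF1 letters at 2 positions and the SP letters at 1, and Foxred1 has CCAAT between matches to the SP letters. Col11a2 was the only gene with TATAAA among the 30 searched, and A3galt2 held no searched motif and 3 CpG.

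Most of the P70 genes were also lower in libraries that share no sample with them. Those libraries did enter the estimate of spread behind the P70 calls, so the overlap of calls is not fully independent. From the P70 libraries alone, edgeR made 0 calls. In the 40 libraries of E14, E18, P7 and P35, with age as a covariate, 490 genes were called (3.00%), 408 lower (2.50%) and 82 higher (0.502%). Of these libraries, 2 carried Xist counts of 60159 (E14 WT replicate 5) and 55644 (E18 WT replicate 2) with few or no Y-linked counts, and without them 396 genes were called, 31 of them shared with P70. Of the 38 genes called at P70, 33 (86.8%) were called there in the same direction, all of them lower. The exceptions were Col11a2 (−0.28, adjusted p = 0.0674, edgeR), Parp16 (−0.13, adjusted p = 0.227), Pgls (−0.07, adjusted p = 0.296), A3galt2 (0.01, adjusted p = 0.986) and Nabp1 (0.11, adjusted p = 0.258). The value of Col11a2 joins unlike ages, at −0.20 at E14, 0.29 at E18, −0.59 at P7 and −0.62 at P35. Of these ages, only P7 had an adjusted p under 0.05 (0.0172, edgeR). The 36 lower genes were all below 0 in those 40 libraries (median −0.19), and 33 were under 0 at each of the 5 ages. With other P70 libraries left out, the shared count followed the number called. It was 21, 8 and 9 without WT replicates 1, 4 and 5, it was 14, 11 and 7 without Het replicates 1, 3 and 4, and it was 75 without Het replicate 5.

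Read in the other direction, the median effect at P70 was like that of the other ages for the lower genes and smaller for the higher genes. Of the 408 genes called lower at the other ages, 397 (97.3%) were below 0 at P70, and their median log2 fold change was −0.16 at the other ages and −0.17 at P70. An unadjusted p under 0.05 at P70 was reached by 228 of them (55.9%), all lower, and 33 (8.09%) were called. Of the 82 genes called higher there, 61 (74.4%) were above 0 at P70, the median was 0.13 at the other ages and 0.06 at P70, and 17 (20.7%) had an unadjusted p under 0.05 in that direction, with 1 in the other. Over all tested genes, 48.5% were below 0 at P70, and 4.41% were lower and 2.14% higher at an unadjusted p under 0.05. Those called lower were 0.220% and those called higher 0.0122% of all tested genes. Both sets, the 408 and the 82, were chosen on their values at the other ages. Why fewer genes were called at P70 was not tested.

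**Figure D5:**
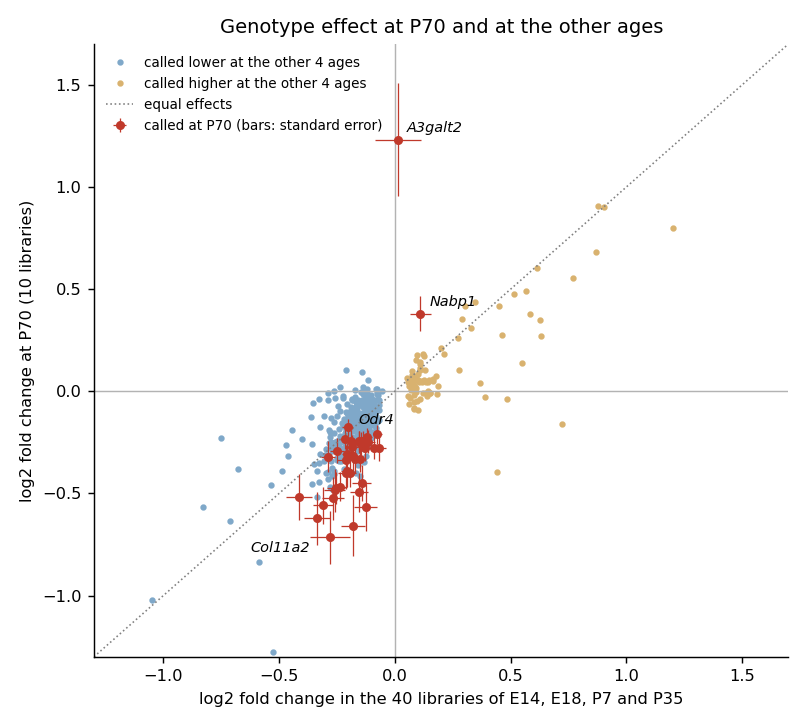
Log2 fold change of Het against WT in the 40 libraries of the other ages (x axis) and at P70 (y axis), for genes called lower (blue) or higher (yellow) at the other ages and for the 38 genes called at P70 (red, bars show the standard error). Most blue points lie below 0 at P70, and the red points, chosen on their P70 values, lie further from 0 at P70 than at the other ages, apart from Odr4.

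Whether the P70 effect differs from that of other ages was tested for each gene. Against the mean effect of the other 4 ages, edgeR called 0 genes, with 516 at an unadjusted p under 0.05 (limma-voom 0, DESeq2 1). Against P35, edgeR called 0 genes, with 233 at an unadjusted p under 0.05 (limma-voom 0, DESeq2 1). The 38 genes were chosen on their P70 values, and 35 of the 36 lower genes were further below 0 at P70 than in the other ages. In the first test 20 of the 38 had an unadjusted p under 0.05, against 3.16% of all tested genes, and in the second 12 had, against 1.43%. The smallest p against the other ages belonged to A3galt2, with a difference of 1.22 on the log2 scale (SE 0.30, unadjusted p = 0.00017, edgeR). C1qtnf9 followed with 1.36 (SE 0.33, unadjusted p = 0.000197) and Pkdrej with −0.94 (SE 0.25, unadjusted p = 0.000478, edgeR), and for each of the 3 the adjusted p was 1.00. Pkdrej was at 2.07 ± 0.294 CPM in WT and 1.31 ± 0.313 CPM in Het at P70 (SD, n = 5), and C1qtnf9 at 0.217 ± 0.0692 and 0.376 ± 0.101 CPM.

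Against P35, the smallest unadjusted p belonged to Piwil1 (0.000303), Dqx1 (0.000552) and Ly6g5b (0.000860), all of them at or under 1 CPM. Piwil1, a small RNA binding protein of the germ line, was at 0.146, 0.198, 0.208, 0.621 and 0.191 CPM in WT and 0.0581, 0.115, 0.0565, 0.175 and 0.0893 CPM in Het. WT replicate 4 was far above the other WT samples, and the groups overlapped. For Col11a2, which had the largest fall among the called genes, the difference between the effects at P70 and P35 was −0.09 (SE 0.18, unadjusted p = 0.619, edgeR).

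The 9 genes that the study plots across ages were chosen on these samples and are not independent evidence of a direction. At P70, edgeR called 4 of them, all lower (D2hgdh, Vars2, Foxred1 and Nudt8). All 9 had an unadjusted p under 0.05 in edgeR, with a median log2 fold change of −0.29. Over all tested genes, those shares were 0.233% and 6.55%. Of the 9, limma-voom called 3, losing Nudt8, and DESeq2 called 5, adding Tmem143. Tmem143 was at 22.4 ± 1.57 CPM in WT and 18.9 ± 1.29 CPM in Het (SD, n = 5), with a log2 fold change of −0.24 (adjusted p = 0.0941, edgeR). The complex I subunit Ndufc1 was at 37.3, 35.6, 34.6, 43.9 and 38.2 CPM in WT and at 32.3, 31.8, 30.6, 32.1 and 27.9 CPM in Het, without overlap, at −0.29 (adjusted p = 0.162, edgeR). Values for Tmem223 (−0.31), Rtn4ip1 (−0.26) and Gnpat (−0.08) had adjusted p of 0.239, 0.287 and 0.732. Gnpat, an enzyme of ether lipid synthesis, was at 59.8 ± 0.672 CPM in WT and 56.6 ± 1.93 CPM in Het, a small step with little spread.

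Among the subunits and assembly factors of the respiratory chain, 1 gene was called at P70, the assembly factor Foxred1. Of 37 complex I subunits encoded in the nucleus, 0 were called by edgeR, limma-voom or DESeq2 and 9 had an unadjusted p under 0.05 in edgeR, all lower, with a median log2 fold change of −0.05. Over all tested genes the share called was 0.233%, the share lower at an unadjusted p under 0.05 was 4.41% and the median was 0.00. After Ndufc1, the smallest p belonged to Ndufv3 (−0.18), Ndufa7 (−0.21) and Ndufs7 (−0.12), with adjusted p from 0.287 to 0.409 (edgeR). The 19 assembly factors of complex I held 1 called gene, Foxred1, and 3 lower genes at an unadjusted p under 0.05, with a median of −0.07. Ndufaf3 (−0.22) and Nubpl (−0.31), both needed to build complex I, were the other 2. Among 39 subunits of complexes II to V, 0 were called by any of the 3 tools, 4 had an unadjusted p under 0.05, all lower, and the median was −0.04. Atp5g2 of the ATP synthase (−0.18) and Sdhc of complex II (−0.13) had adjusted p of 0.345 and 0.585.

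Transcripts of the mitochondrial genome itself were also measured. The 13 mitochondrially encoded messenger RNAs had a median log2 fold change of 0.00, with 0 called by edgeR, limma-voom or DESeq2 and 0 at an unadjusted p under 0.05. All Het samples were below all WT samples for mt-Co3, as in 1.26% of all tested genes, at 8.18 against 9.45 CPM (−0.21, SE 0.14, adjusted p = 0.956, edgeR). Such a level is low beside the share of counts on the mitochondrial genome, so mt-Co3 may be poorly measured here. The mitochondrial genome took 3.40% ± 0.318 of the counts in WT and 3.49% ± 0.187 in Het (SD, n = 5, two-sided exact permutation test on log2 shares, p = 0.587, where the smallest possible p is 0.00794).

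Genes that serve mitochondrial translation were counted next. Over all tested genes, 0.233% were called, and 4.41% were lower and 2.14% higher at an unadjusted p under 0.05. The 17 mitochondrial aminoacyl-tRNA synthetases, which load transfer RNAs with amino acids, held 1 called gene (Vars2) and 5 lower genes at an unadjusted p under 0.05, with a median of −0.07. Iars2 (−0.10) and Rars2 (−0.17) had adjusted p of 0.540 and 0.667 (edgeR). For the 20 cytosolic synthetases the median was 0.01, 0 were called by the 3 tools and 3 lower genes had an unadjusted p under 0.05, Dars (−0.20), Vars (−0.16) and Mars (−0.11). Of the 78 proteins of the mitochondrial ribosome, 0 were called by the 3 tools, 9 lower and 2 higher genes had an unadjusted p under 0.05, and the median was −0.03. In the 80 genes of the cytosolic ribosome the median was −0.01, with 0 called by the 3 tools and 1 at an unadjusted p under 0.05. The 22 enzymes that modify transfer and mitochondrial RNA had 0 called by the 3 tools, 5 lower at an unadjusted p under 0.05 and a median of −0.05, with Trmu (−0.18), Trmt1 (−0.16), Trub1 (−0.21) and Trmt61a (−0.22) first.

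Import and carrier genes were counted as well. The 24 genes of mitochondrial import held 1 gene at an unadjusted p under 0.05, Tomm40l (−0.12), which shares 64.3% of its exonic bases with Nr1i3. The 44 SLC25 carriers held 4, all lower, with Slc25a11 (−0.14) and Slc25a28 (−0.15) first, and in both lists 0 genes were called by the 3 tools. Together the mitochondrial lists hold 293 tested genes, of which 2 were called, 40 lower and 2 higher genes had an unadjusted p under 0.05, and 73.0% were lower in Het by any margin (median −0.04). Over all tested genes, 0.233% were called, 4.41% were lower and 2.14% higher at an unadjusted p under 0.05, and 48.5% were lower by any margin.

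Enzymes of nucleotide hydrolysis, peroxisomes and DNA repair were also counted. The 22 Nudix hydrolases held 2 called genes, Nudt18 and Nudt8, and 6 lower genes at an unadjusted p under 0.05, with a median of −0.07. Over all tested genes these shares were 0.233% and 4.41%, and limma-voom called only Nudt18 among the hydrolases. Nudt14, at −0.41 (adjusted p = 0.0899, edgeR), was called by DESeq2 alone. Of 19 genes of peroxisomes and ether lipid synthesis, edgeR and limma-voom called 0 and DESeq2 called 1, the import receptor Pex7, and 3 had an unadjusted p under 0.05 in edgeR. Pex7 was at 27.1 CPM in WT and 22.5 CPM in Het (−0.27, adjusted p = 0.107, edgeR), without overlap between groups. The list of 48 DNA repair genes, which does not hold the called genes Mpg, Recql5 and Nabp1, had 0 called by the 3 tools, 8 lower genes at an unadjusted p under 0.05 and a median of −0.04. They were led by the glycosylase Neil1 (−0.34), the recombination factor Rad51d (−0.23) and Nthl1 (−0.35). For the 21 targets of p53, 0 were called by the 3 tools, 0 had an unadjusted p under 0.05 and the median was 0.03. The 22 genes of cholesterol synthesis had 0 called by the 3 tools, 4 lower genes at an unadjusted p under 0.05 and a median of −0.03, with Mvd (−0.20) first.

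The H3K4 machinery around Setd1a was measured near its WT level. For the 6 H3K4 methyltransferases, 0 were called by the 3 tools, 0 had an unadjusted p under 0.05, and log2 fold changes lay between −0.03 and 0.04. Setd1b, the nearest relative of Setd1a, was at 59.0 CPM in WT and 58.2 CPM in Het, and Kmt2a at 212.8 and 219.2 CPM. The 13 COMPASS subunits had 0 called by the 3 tools, with 1 lower and 2 higher at an unadjusted p under 0.05, where the shares over all tested genes were 4.41% and 2.14%. These were Pagr1a (−0.13), which shares 98.7% of its exonic bases with Gm42742 and has a near copy, Pagr1b, the core subunit Wdr5 (0.12) and Bod1l (0.14). The 5 H3K4 demethylases had 0 called by the 3 tools and 1 at an unadjusted p under 0.05, Kdm1b (0.11, adjusted p = 0.757, edgeR). Among the 20 readers of trimethylated H3K4, 0 were called by the 3 tools and 2 had an unadjusted p under 0.05.

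Zcwpw1, a reader of histone methylation, had the smallest p among those readers. It was at 7.28, 6.50, 6.32, 6.97 and 6.87 CPM in WT replicates 1 to 5 and at 4.85, 5.48, 5.31, 5.56 and 4.70 CPM in Het replicates 1 to 5. All Het samples were below all WT samples, and Het cortex held 76.3% of the WT level. The log2 fold change was −0.39 at P70 (SE 0.11, adjusted p = 0.162, edgeR) and −0.49 at the other ages (SE 0.060, adjusted p = 1.46e-06), and the difference between them had an unadjusted p of 0.438.

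Synaptic and neuronal lists showed little at P70. The 7 NMDA receptor subunits, 14 GABA-A receptor subunits, 17 postsynaptic scaffolds, 16 synaptotagmins and 8 sodium channel subunits had 0 called by edgeR, limma-voom or DESeq2 and 0 at an unadjusted p under 0.05. The 15 AMPA receptor subunits and auxiliary proteins had 0 called and 1 at an unadjusted p under 0.05, Shisa6 (0.25, adjusted p = 0.757, edgeR). Medians of these lists lay between −0.07 and 0.03. The 25 immediate early genes had 0 called by the 3 tools and 0 at an unadjusted p under 0.05, with a median of 0.09, and the 19 circadian clock genes likewise had 0 and 0, with a median of 0.01. Of 10 genes with rare variants in schizophrenia, 0 were called by the 3 tools and 1 had an unadjusted p under 0.05, the nuclear transport factor Xpo7 (0.10, adjusted p = 0.667, edgeR). A further list holds genes whose proteins the study reports as altered by genotype in synaptosomes, so it was chosen for an effect of genotype. Of its 5 tested genes, 0 were called by the 3 tools and 1 had an unadjusted p under 0.05, Ndufa3 (−0.14, adjusted p = 0.740, edgeR).

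Genes beside Setd1a on chromosome 7 were examined because they can travel with the targeted allele. Genes that mark the strain background were also examined, of which Wdfy1 lies on chromosome 1. Within 2 Mb of Setd1a, 113 genes were tested, 0 were called by the 3 tools and 16 had an unadjusted p under 0.05, all lower, with a median of −0.03, where 4.41% of all tested genes were lower at that threshold. Orai3, a calcium channel gene 1.52 kb from Setd1a with a low p among these, was at 13.3, 14.7, 15.5, 17.5 and 17.4 CPM in WT and at 12.0, 11.8, 11.8, 11.4 and 11.2 CPM in Het. The Het samples were tightly grouped below all WT samples, at a log2 fold change of −0.43 (SE 0.12, adjusted p = 0.162, edgeR) and −0.29 at the other ages (adjusted p = 0.00848). Wdfy1, whose level differs between C57BL/6 substrains, was at 35.7, 34.1, 36.3, 34.3 and 20.9 CPM in WT and at 18.7, 19.7, 21.97, 21.2 and 19.8 CPM in Het. So 4 WT samples had a high level, and WT replicate 5 and all Het samples had a low one (log2 fold change −0.67, SE 0.22, adjusted p = 0.291, edgeR). Nnt, part of which is deleted in C57BL/6J, was at 25.3, 20.5, 21.2, 19.5 and 20.6 CPM in WT and at 27.2, 27.3, 27.3, 27.3 and 18.8 CPM in Het. WT replicate 1 and Het replicates 1 to 4 formed its higher group, and the annotation lists Nnt under a second identifier with like values. At genes beside Setd1a, background segments and the targeted allele cannot be told apart. The levels of Wdfy1 and Nnt did not follow genotype in every sample, and the part of background in them was not tested.

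The zinc finger cluster of chromosome 2 was also examined. Its 24 tested genes had a median log2 fold change of 0.14, with 0 called by edgeR or limma-voom, 2 called higher by DESeq2 and 6 higher genes at an unadjusted p under 0.05 in edgeR, as for 2.14% of all tested genes. Gm14418 was at 0.90 (SE 0.23, adjusted p = 0.0957, edgeR) and Gm14322 at 0.49 (SE 0.14, adjusted p = 0.177), the pair called by DESeq2. For Gm14418, Het replicate 3 was at 1.69 CPM, within the WT range of 1.69 to 2.08 CPM. Its other Het samples were at 3.54 to 4.27 CPM. Near-identical copies in the cluster can exchange fragments, so values of single members are uncertain. At the other ages 7 of the 24 were called, all higher, as were 0.502% of all tested genes.

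Gene types other than protein-coding were tested in a fit of all annotated genes. Of the 6868 tested there, edgeR called 0 and 377 had an unadjusted p under 0.05, and the other tools were not run on them. The smallest p belonged to Gm16312, at −0.58 (adjusted p = 0.0556, edgeR), all of whose exonic bases lie on exons of Nudt8, with which it shares fragments because no strand was used in counting.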

How the data were processed

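The counts are those deposited by the authors, made with Trimmomatic, STAR and featureCounts on GRCm38, where a fragment over several genes was counted for each. GENCODE vM21 supplied gene types for 55141 of 55487 deposited identifiers. Protein-coding genes passing filterByExpr were scaled by TMM and fitted in edgeR 4.0.16 (R 4.3.3) as 10 groups of age and genotype over all 50 libraries, with quasi-likelihood tests and p adjusted over all tested genes. The other 40 libraries were fitted with genotype and age. The mitochondrial share had an exact permutation test. A chosen test of Setd1a counts minus those of the overlapping Gm49388 is not reported, as Gm49388 also covers exons of Hsd3b7. Genes named are those called higher, the 16 called lower with the smallest p, called list members and leading list members; any other was chosen after its values were seen. Members and lists were chosen with earlier results of these data known. Alternatives were limma-voom 3.58.1, DESeq2 1.42.0, other scalings, filters, covariates, a stricter threshold, a replicate block and each library left out; 4 more were chosen after seeing the data.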

Additional observations from a re-analysis of the deposited data

Results flagged for a closer look

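A sample far from the other 4 of its group was looked for in 150 groups of 5, and 15 (10%) held one, where chance alone gives about 1 in 20. Among genes, these were the highest WT values of Nudt8 (7.48 CPM, WT replicate 4) and Piwil1 (0.621 CPM, WT replicate 4) and the highest Het value of Lrrc61 (21.6 CPM, Het replicate 5). Among marker sums in WT they were the highest excitatory neuron value (8499 CPM) and upper layer value (875 CPM) and the lowest oligodendrocyte value (3861 CPM), all in WT replicate 3. They also include the highest deep layer value (575 CPM, WT replicate 1) and the highest pericyte and smooth muscle (349 CPM) and olfactory bulb (156.6 CPM) values, both in WT replicate 4. In Het they were the highest excitatory neuron value (7620 CPM, Het replicate 1), pericyte and smooth muscle value (407 CPM, Het replicate 2), choroid plexus value (246 CPM, Het replicate 3) and olfactory bulb value (160.3 CPM, Het replicate 4), and the lowest microglia value (460.2 CPM, Het replicate 5). The SD of log2 deviations from the group mean was, among Het libraries, highest in Het replicate 5 (0.175). The causes were not tested.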

How the results depend on the processing

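The 38 called genes kept their direction, where they had a value, under other tools, scalings and filters, with RNA integrity or the run of animal numbers as a covariate, and with each library left out. The count of 38 genes called was 30 with limma-voom, 77 with DESeq2, 0 in the P70 libraries alone, 0 with the run of animal numbers as a covariate in those libraries, and 6 at an adjusted p under 0.01. It was 8 to 104 with each library left out. Under alternatives chosen after seeing the data it was 255 without the 2 libraries of largest deviation, 15 without the 3 of lowest immediate early gene level, 13 without the 3 apart on component 1, and 28 with immediate early gene level as a covariate. The share of lower genes among those called was 94.7%, and 79.6% without the 2 libraries of largest deviation. Genes called at P70 and in the other ages numbered 33; this was 62 with DESeq2, 5 at an adjusted p under 0.01, 7 to 75 with each library left out, 112, 15 and 12 under the 3 omissions above, and 2 against P35 alone, where 3 genes were called in all. The 0 genes that differed from the other ages became 1 with DESeq2 and 3 without the 2 libraries of largest deviation, and the 0 that differed from P35 became 1 with DESeq2. The cause was not tested.

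Setd1a ran from −0.082 to 0.0085 with each library left out and turned direction without Het replicate 4 (0.0085). Dqx1 (0.06) turned to −0.082 with the run covariate and ran from −0.12 to 0.20 with each library left out, at −0.04 without WT replicate 2, −0.04 without WT replicate 3, −0.02 without Het replicate 1 and −0.12 without Het replicate 2. The cause was not tested.

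With replicate number as a block, 39 genes were called, 28 of them among the 38, and 30 were shared with the other ages. The block value of Setd1a was −0.03. As a check of pairing, deviations of same-numbered WT and Het libraries correlated at −0.01, 0.12, −0.08, −0.11 and 0.68 for replicates 1 to 5. Only 1 WT library was closest to the Het library of its own number. With a high correlation for replicate 5 alone, this check cannot decide whether same-numbered samples share a litter. A filter of 10 CPM leaves 4 called genes and Dqx1 without a value, and fits of P70 alone give no comparison with other ages.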
